A study of Rattus norvegicus with 93 samples.

Results

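Penk, Pdyn, Pnoc and Pomc encode the precursor proteins from which opioid peptides are cut. They were taken as a gene family, by their names in the deposited table, and they are 4 of its 38354 genes. Both they and the gene lists used below were chosen with earlier results of these data known. Expression was measured in the rostromedial tegmental nucleus (RMTg), a cluster of inhibitory brainstem neurons whose axons reach the dopamine neurons of the midbrain. The animals were outbred laboratory rats, the RNA was polyadenylated, and the study, on avoidance learning in addiction, was made for genetic analysis. All samples belong to 1 group, with 1 library per sample, and the labels give no strain name, treatment, genotype, age or sex. The comparisons made here are therefore between libraries: how far each precursor gene varied, with which genes it varied, and whether it differed between runs of sample identifiers.

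Of 92 libraries, 49 were used, namely those in which Nif3l1 took under 20% of the estimated counts and LOC120093067 and Zfp532 together took under 10%. Identifiers fall into number series, in which a gap of over 50000 starts a new one. Series B, C, D, E and F held 7, 16, 12, 7 and 7 of the 49 libraries. The labels do not say what these series are. Total estimated counts ranged from 9.55 to 50.2 M per library (median 19.2 M; M stands for 1000000), and 23690 to 28273 genes were above 0. No 2 of these libraries were duplicates: over 1176 pairs the lowest chi-square per gene was 7.30. The tissue label was checked against marker genes. The filter on low values kept 8 of 8 markers of RMTg inhibitory neurons, 0 of 4 noradrenergic, 1 of 5 cholinergic and 1 of 5 cerebellar markers. It also kept 11 of 11 dopaminergic, 4 of 4 serotonergic, 5 of 5 interpeduncular and 5 of 5 striatal markers, so passing it does not single out the RMTg. The summed level of the 11 dopamine neuron markers ranged from 369.1 to 2473 CPM (estimated counts per 1000000). In such bulk tissue, fewer cells of a type and less RNA per cell cannot be told apart.

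Opioid peptides are made as parts of larger proteins that enter dense core vesicles, where prohormone convertases and carboxypeptidase E cut out the active peptides. Penk gives the enkephalins, which act mainly at delta and mu opioid receptors, and Pdyn gives the dynorphins, which act at the kappa receptor. Pomc gives beta-endorphin together with adrenocorticotropin and melanocortins, and in the brain its neurons are known chiefly from the arcuate hypothalamus and the solitary tract nucleus. Pnoc gives nociceptin, whose receptor Oprl1 resembles the opioid receptors but binds the classical opioids poorly. These receptors couple to inhibitory G proteins, and RMTg neurons are known for their mu receptors and for braking dopamine neurons.

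In RefSeq's GRCr8 annotation of the rat genome, Penk (gene ID 29237) lies at chr5:21981381-21987074, Pdyn (29190) at chr3:137354161-137366503, Pnoc (25516) at chr15:43800240-43827841 and Pomc (24664) at chr6:32659137-32665175. The single position that the table gives for each of the 4 equals an end of the gene there; the build of the table itself is not given in the sources used here. Values in the table carry no correction for transcript length, so levels of different genes are not ranked against each other.

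Penk was detected with 1582 to 9682 estimated counts in each of the 49 libraries. Its level was 120.3 CPM in the lowest library, 167.6 CPM at the median and 238.3 CPM in the highest, with a mean of 170.7 ± 28.1 CPM (SD, n = 49). Exact 95% intervals for counting error were 114.6 to 126.1 CPM in the lowest library and 231.1 to 245.6 CPM in the highest, so the ends of the range are apart by more than counting error. By series the medians were 173.9 CPM in B, 172.5 CPM in C, 162.9 CPM in D, 177.5 CPM in E and 143.7 CPM in F. All 5 series overlapped. The SD of log2(CPM + 1) was 0.23 for Penk, against a median of 0.23 for the 200 genes of most similar level, and 52% of those genes varied less.

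Pdyn, at 3.52 to 146 estimated counts, was far shallower, and each of its values carries a wide counting error. It stood at 0.26 CPM in the lowest library (exact 95% interval 0.081 to 0.76), 2.25 CPM at the median (1.77 to 2.81) and 5.68 CPM in the highest (4.49 to 7.03), with a mean of 2.32 ± 1.33 CPM (SD, n = 49). The intervals of the lowest, median and highest library did not overlap. Pdyn had the widest spread of the 4 genes relative to genes of its own level: its SD of 0.61 on the log2 scale was larger than that of 96% of the 200 nearest genes, whose median SD was 0.35. Series medians were 2.56 CPM in B, 1.56 CPM in C, 1.55 CPM in D, 2.96 CPM in E and 2.81 CPM in F, with every series overlapping the others.

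Pnoc reached 91.2 CPM in the lowest library, 136.6 CPM at the median and 212.9 CPM in the highest, with a mean of 146.3 ± 34.7 CPM (SD, n = 49). It was the precursor gene whose series stood furthest apart. The medians were 118.7 CPM in B, 133.4 CPM in C, 125.4 CPM in D, 195.1 CPM in E and 173.0 CPM in F. All 14 libraries of series E and F lay at or above 152.4 CPM, whereas the 7 libraries of series B ended at 145.2 CPM. In C 4 of 16 libraries and in D 2 of 12 also lay at or above 152.4 CPM, with the highest at 204.1 CPM in C and 200.1 CPM in D, so the ranges overlapped there. Its log2 SD of 0.34 was larger than that of 88.5% of the 200 genes of most similar level.

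Pomc stayed low and even. It stood at 0.99 CPM in the lowest library (exact 95% interval 0.43 to 1.79), 2.44 CPM at the median (1.66 to 3.42) and 5.93 CPM in the highest (4.72 to 7.41), from 9.44 to 123.9 estimated counts. The mean was 2.45 ± 0.80 CPM (SD, n = 49), and series medians lay between 2.42 CPM in D and 2.78 CPM in F. Only 20% of the 200 genes of like level varied less than Pomc. Apart from the highest library, in series D, no library exceeded the 4.08 CPM of 1 series F library.

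**Figure D1:**
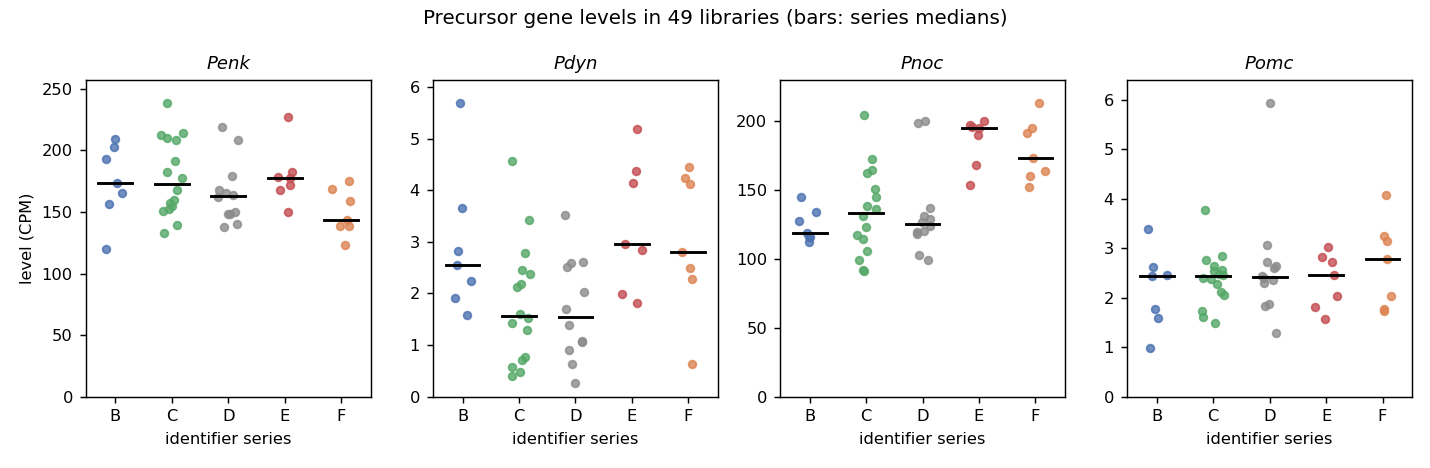
Level in CPM of each precursor gene (1 panel per gene, own vertical axis starting at 0) by identifier series; each point is 1 of 49 libraries and each bar is a series median. Pnoc is at or above 152.4 CPM in every library of series E and F, Pdyn spreads from 0.26 to 5.68 CPM, and 1 series D library holds the highest Pomc value of 5.93 CPM.

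Series differences were tested with limma's F test on log2(CPM + 1) over 18749 genes, Benjamini-Hochberg adjusted. The test called 320 genes, or 1.71% of those tested. Pnoc was the only precursor gene among them (F = 8.73, adjusted p = 0.0032). The adjusted p was 0.129 for Pdyn, 0.533 for Penk and 0.914 for Pomc, which does not show that their series are alike.

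The series differed in other ways than in Pnoc. The summed level of 11 immediate early genes, which cells switch on within minutes of stimulation, had medians of 57.1 CPM in B, 68.2 CPM in C, 58.2 CPM in D, 591.3 CPM in E and 646.0 CPM in F. Ddx3y exceeded Xist in 2 of 7 libraries in B and 10 of 16 in C, but in 0 of 12 in D, 0 of 7 in E and 0 of 7 in F. By this count D was like E and F. Median Xist was 225.4 CPM in B, 0.43 CPM in C, 271.2 CPM in D, 197.9 CPM in E and 195 CPM in F. With Xist and Ddx3y as covariates the adjusted p for Pnoc was 0.36 in the same limma test, and with the first principal component of all genes as covariate it was 0.40. Among series B, C and D alone, limma called 0 genes (654 at an unadjusted p under 0.05), and Pnoc was at adjusted p = 1. The part of immediate early genes, Xist and Ddx3y in the Pnoc difference was not tested beyond these fits.

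Genes varying with each precursor were then sought. Each gene's log2(CPM + 1) was fitted with limma to the log2(CPM + 1) of the precursor in SD units, so a slope is the log2 difference per SD of the precursor across libraries. Of 18748 genes tested, 4680 (25%) had a slope on Pdyn, 2302 rising (12.3%) and 2378 falling (12.7%). On Pnoc the test called 4175 genes (22.3%), 1802 rising (9.61%) and 2373 falling (12.7%). Pomc had 198 (1.06%), with 105 rising (0.56%) and 93 falling (0.496%), and Penk had 0 (0.0%), with 802 genes at an unadjusted p under 0.05. The estimated counts behind Pnoc, 1105 to 8029 per library, were of the same order as those behind Penk.

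**Figure D2:**
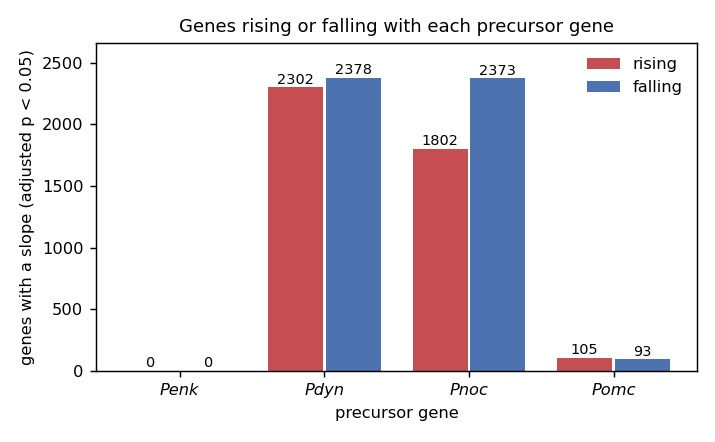
Number of genes with a slope on each precursor gene at a Benjamini-Hochberg adjusted p under 0.05 (limma, 18748 genes, 49 libraries), rising and falling shown as separate bars. Pdyn and Pnoc have 4680 and 4175 such genes, Pomc has 198 and Penk has 0.

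Pdyn and Pnoc both followed the main axis of variation between libraries. The first principal component of the 49 libraries held 17% of the variance of all genes, 42.1% of that of Pdyn, 31.3% of that of Pnoc, 2.84% of that of Pomc and 0.41% of that of Penk. With that component as a covariate 9 genes had a slope on Pdyn and 1731 on Pnoc. With series as a covariate the counts were 1337 for Pdyn and 1376 for Pnoc, and without series E and F they were 455 and 335.

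Pdyn varied with the markers of dopamine neurons. Of 11 such markers tested, 10 rose with Pdyn and 0 fell, with a median slope of 0.33, against 12.3% of all genes rising and a median over all genes of -0.001. The dopamine transporter gene Slc6a3 was at 5.52 CPM in the lowest library, 36.1 CPM at the median and 124.1 CPM in the highest, and had a slope of 0.81 ± 0.10 (SE; limma adjusted p = 2.8e-07). Th, the rate-limiting enzyme of dopamine synthesis, had a slope of 0.63 ± 0.09 (adjusted p = 1.8e-05). The vesicular monoamine transporter gene Slc18a2, the dopamine autoreceptor gene Drd2 and the transcription factor gene Foxa1 had slopes of 0.36, 0.38 and 0.38. En1, a homeobox gene of the midbrain, was the marker that did not pass, at 0.04.

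The count of markers depended on what was held constant. With series as a covariate 10 of the 11 markers rose, without series E and F 9 did, with Xist and Ddx3y as covariates 9 did and with the first principal component 3 did. Of all genes tested, 711 of 18748, 300 of 18895, 913 of 18748 and 9 of 18748 rose in these fits, in that order. Read the other way, Pdyn rose by 0.42 ± 0.06 log2 units per SD of the dopaminergic score (the mean z-score of the 11 markers; limma adjusted p = 2.2e-06, with 6.06% of genes called on that score). Within series the slope was 0.29 in B, 0.44 in C, 0.53 in D, 0.21 in E and 0.50 in F, positive in 5 of 5. That slope was fitted in 11 other settings and passed the threshold in each. Among them was the fit to all 92 libraries, with a slope of 0.60. There 18212 of 18937 genes were called on the score, so passing in that fit is no support. In the remaining settings the slope ranged from 0.30 to 0.51.

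Gene by gene, the patterns most like Pdyn over the 49 libraries were those of Chrna6 (Pearson r = 0.77), Ret (0.75), Slc6a3 (0.75), Gcnt2 (0.73), Slc18a2 (0.72) and Sdc2 (0.71). Chrna6 encodes a nicotinic receptor subunit, Ret the receptor of the GDNF family of growth factors, Gcnt2 a glycosyltransferase and Sdc2 a heparan sulfate proteoglycan. Chrna6 was at 1.34 CPM in the lowest library, 9.21 CPM at the median and 51.4 CPM in the highest. Farthest from Pdyn were the chromatin remodeller Chd4 (-0.67), Limch1 (-0.67) and the microtubule protein gene Map1a (-0.65). Each of these 9 genes had the same sign of r in 5 of 5 series. The values share library and depth, and the genes were picked for their r.

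Promoter windows of Pdyn and of the 3 genes most like it that have one in the RefSeq table are shown because these genes moved together. Each is the 250 bases before the annotated start, 5′ to 3′ on the gene's own strand, from RefSeq on GRCr8. Capitals mark matches to 4 motifs searched on both strands: the TATA box TATAAA, the NR4A element AAAGGTCA, the cAMP response element TGACGTCA and the AP-1 site TGANTCA.
Pdyn, chr3:137366504-137366753, minus strand: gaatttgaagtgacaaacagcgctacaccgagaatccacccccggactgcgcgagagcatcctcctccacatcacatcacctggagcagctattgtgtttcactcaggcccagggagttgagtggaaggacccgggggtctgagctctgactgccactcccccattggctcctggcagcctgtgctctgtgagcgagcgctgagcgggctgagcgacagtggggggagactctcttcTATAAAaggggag
Slc6a3, chr1:31578963-31579212, minus strand: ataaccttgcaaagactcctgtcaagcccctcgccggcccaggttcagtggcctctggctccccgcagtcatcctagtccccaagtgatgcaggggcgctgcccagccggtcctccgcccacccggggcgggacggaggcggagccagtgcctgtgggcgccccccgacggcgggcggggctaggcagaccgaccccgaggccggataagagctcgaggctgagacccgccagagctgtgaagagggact
Ret, chr4:153040557-153040806, minus strand: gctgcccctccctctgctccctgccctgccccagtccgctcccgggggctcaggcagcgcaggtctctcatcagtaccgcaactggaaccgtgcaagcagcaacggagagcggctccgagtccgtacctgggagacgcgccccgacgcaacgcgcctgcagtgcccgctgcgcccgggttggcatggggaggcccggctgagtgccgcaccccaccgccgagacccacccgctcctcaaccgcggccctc
Slc18a2, chr1:268399771-268400020, plus strand: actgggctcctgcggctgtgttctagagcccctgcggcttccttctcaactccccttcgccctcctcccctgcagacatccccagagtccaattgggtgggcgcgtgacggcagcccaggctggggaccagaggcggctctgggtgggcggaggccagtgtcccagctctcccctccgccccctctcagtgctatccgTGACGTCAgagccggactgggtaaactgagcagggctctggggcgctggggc

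The Pdyn window holds 1 TATAAA, at positions -13 to -8 from the start, and no other match. TATAAA occurs in 12.9% of 33469 rat promoter windows of this length. Slc18a2 holds TGACGTCA at -52 to -45, a motif found in 1.59% of windows, and it reads the same on both strands. The Slc6a3 and Ret windows hold no match to the 4 motifs; AAAGGTCA is found in 1.24% and TGANTCA in 6.34% of all windows. No motif match was shared between Pdyn and the other windows. A match is a description of these letters only.

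Some genes of a general list for the processing of peptide precursors also varied with Pdyn. Of 10 processing genes, 4 rose and 0 fell, against 12.3% and 12.7% of all genes. They were Pcsk1, a prohormone convertase (slope 0.16 ± 0.04, limma adjusted p = 0.0063), Cpe, which trims the C-terminal basic residues (0.11), Pam, which amidates peptides (0.13), and the protease gene Ctsl (0.10). The convertase gene Pcsk2, known to take part in making dynorphins, had a slope of 0.08 and did not pass. Of 9 dense core vesicle genes 4 rose, among them Scg2 (0.19) and Cadps2 (0.18). Pdyn itself rose by 0.43 ± 0.06 per SD of the processing score (adjusted p = 3.0e-07, with 43.2% of genes called on that score), positive in 5 of 5 series. With series as a covariate, 2 processing genes and 3 vesicle genes rose, against 711 of 18748 genes. With the first principal component of all genes as a covariate 0 of either list rose, against 9 of 18748 genes. The slope of Pdyn on the processing score was then 0.33 (limma adjusted p = 0.24).

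Among receptors, the kappa receptor gene Oprk1 rose with Pdyn. It was at 2.72 CPM in the lowest library, 10.2 CPM at the median and 19.5 CPM in the highest, and had a slope of 0.28 ± 0.05 (limma adjusted p = 0.00030). The slope was 0.27 with series as a covariate (adjusted p = 0.0081) and 0.13 with the first principal component (adjusted p = 0.9995). The mu receptor gene Oprm1, at 3.91 ± 1.42 CPM, had a slope of 0.00, and the nociceptin receptor gene Oprl1, at 31.6 ± 4.57 CPM (SD, n = 49 each), had one of 0.06; neither passed. Oprd1, the delta receptor gene, did not pass the filter on low values and stood at 0 in 20 of 49 libraries.

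Other neuropeptide genes followed Pdyn in part. Of 13 tested, 6 rose and 0 fell, against 12.3% and 12.7% of all genes: Cck (cholecystokinin, slope 0.63 ± 0.10, limma adjusted p = 4.1e-05), Nts (neurotensin, 0.51), Crh (corticotropin-releasing hormone, 0.31), Calca (0.23), Adcyap1 (PACAP, 0.22) and Cartpt (0.17). Under the fit with series as a covariate 5 rose, and Cartpt did not pass (limma adjusted p = 0.14). Without series E and F 4 rose, and Calca (0.23) and Cartpt (0.21) did not pass. With the first principal component as a covariate Cck and Crh alone passed, against 9 of 18748 genes. Sst, the somatostatin gene, had a slope of 0.01 and Tac1, the substance P gene, one of -0.03. Pdyn rose by 0.28 ± 0.08 per SD of this list's score (adjusted p = 0.011, with 17.4% of genes called), but the slope was -0.01 with the dopaminergic score as a covariate. Of 18 receptor signalling genes 5 rose with Pdyn, including the inhibitory G protein gene Gnai1 (0.20), Rgs4, which shortens G protein signals (0.20), and the potassium channel gene Kcnj5 (0.17). With the first principal component as a covariate 0 of the 18 rose, against 9 of 18748 genes. Of 8 peptidase genes that break opioid peptides down, Dpp3 alone rose (0.08), a share close to the 12.3% of all genes; with series as a covariate 0 did.

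Markers of the RMTg neurons themselves did not rise with Pdyn. Of 8, 0 rose and 2 fell, against 12.3% and 12.7% of all genes: Slc32a1, the vesicular GABA transporter (slope -0.15 ± 0.05, limma adjusted p = 0.018), and the transcription factor gene Foxp1 (-0.10). The limma adjusted p for Slc32a1 was 0.056 under median-of-ratios scaling, 0.092 without series E and F and 0.9995 with the first principal component as a covariate. The glycine receptor gene Glra1 fell as well (-0.22), 1 of 3 glycinergic genes. The 2 interpeduncular markers Chrna3 (0.30) and Chrna5 (0.40) rose, of 5. Of glial and vessel markers, 1 of 7 oligodendrocyte, 2 of 5 oligodendrocyte precursor, 2 of 7 astrocyte, 1 of 9 microglia and 0 of 7 endothelial genes rose, and 0 fell. Of 3 hypothalamic markers past the filter Pmch rose (0.17), and Agrp (-0.14) and Avp (-0.17) fell. Once series was a covariate, 1 of 7 astrocyte markers and 0 of the oligodendrocyte, precursor and microglia markers rose, and Pmch and Agrp did not pass. With the first principal component 0 RMTg inhibitory, glycinergic, interpeduncular, glial or hypothalamic markers passed. Only 9 of 18748 genes passed in that fit, so 0 in lists this short is near the share of all genes. The part of any of these cell types in the Pdyn level was not tested.

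**Figure D3:**
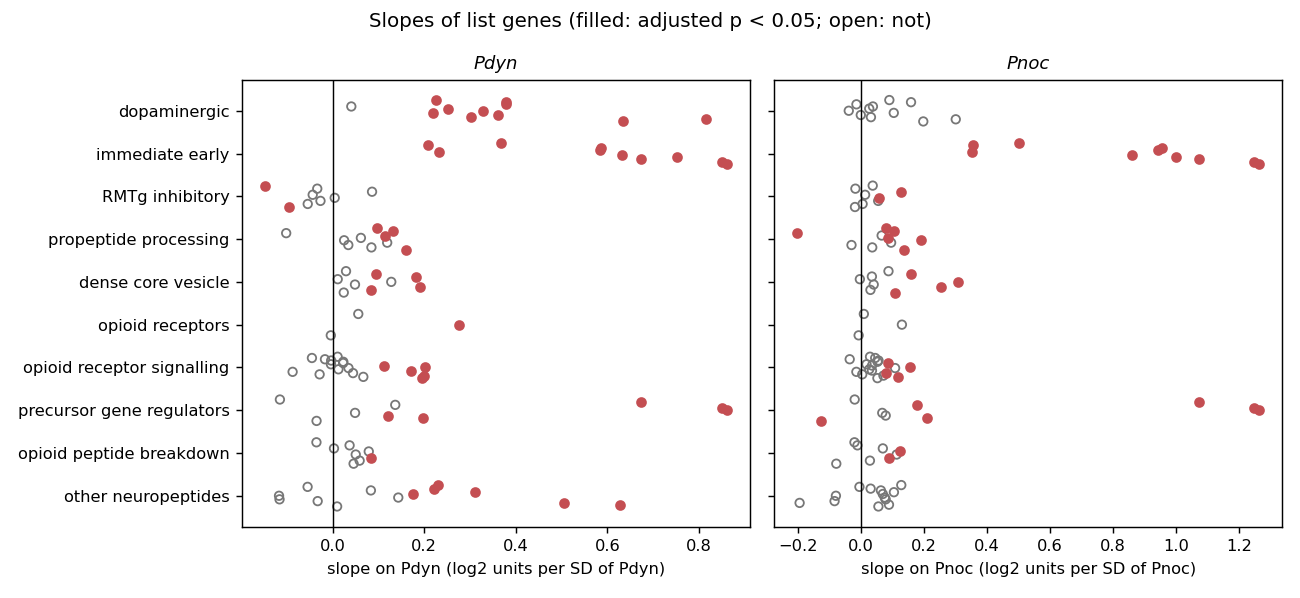
Slope of each gene of 10 gene lists on Pdyn (left) and Pnoc (right), in log2 units per SD of the precursor gene; each circle is 1 gene, filled where the limma adjusted p is under 0.05 and open otherwise. On Pdyn 10 of 11 dopaminergic genes and 10 of 10 immediate early genes are filled; on Pnoc 0 of 11 and 10 of 10 are.

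Immediate early genes rose with Pdyn in the pooled fit, in which series E and F held their high levels. Pooled over series, 10 of 10 rose, against 12.3% of all genes, Fos by 0.86 ± 0.23 (limma adjusted p = 0.0062) and Egr1 by 0.75. Fos stood at medians of 8.44 CPM in B, 9.37 CPM in C, 8.03 CPM in D, 166.9 CPM in E and 193.6 CPM in F, so the libraries form 2 separate clusters and no pooled correlation is given. With series as a covariate 0 of 10 rose, and without series E and F 0 of the 7 that then passed the filter did. Of all genes, 711 of 18748 and 300 of 18895 rose in these fits, so 0 in a list this short is near those shares. The slope of Pdyn on the immediate early score was 0.17 in B, -0.15 in C, 1.56 in D, -0.63 in E and 0.83 in F. Of 9 genes known to regulate precursor genes, 5 rose with Pdyn, against 12.3% of all genes, and 3 of them (Fos, Fosb and Junb) are also in the immediate early list. Crem (0.20) and Atf1 (0.12), of the CREB family, were the others. With series as a covariate 0 of the 9 rose.

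Immediate early genes rose with Pnoc. Of 10 immediate early genes 10 rose with Pnoc, against 9.61% of all genes, with a median slope of 0.95, against 0.001 over all genes tested. Fos had a slope of 1.26 ± 0.20 (limma adjusted p = 1.8e-05), Fosb 1.25, Junb 1.07 and Egr1 1.0. With series as a covariate 0 of 10 rose, and without series E and F 0 of 7 did. The slope for Fos was 0.13 and 0.07 in these fits. Of all genes, 845 of 18748 and 243 of 18895 rose in them, so 0 in a list this short is near those shares, as for Pdyn. Pnoc rose by 0.22 ± 0.04 per SD of the immediate early score (adjusted p = 3.6e-05, with 14.3% of genes called), and within series by 0.48 in B, 0.41 in C, -0.37 in D, -0.12 in E and 0.19 in F. Activity of these genes and the series cannot be told apart here.

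**Figure D4:**
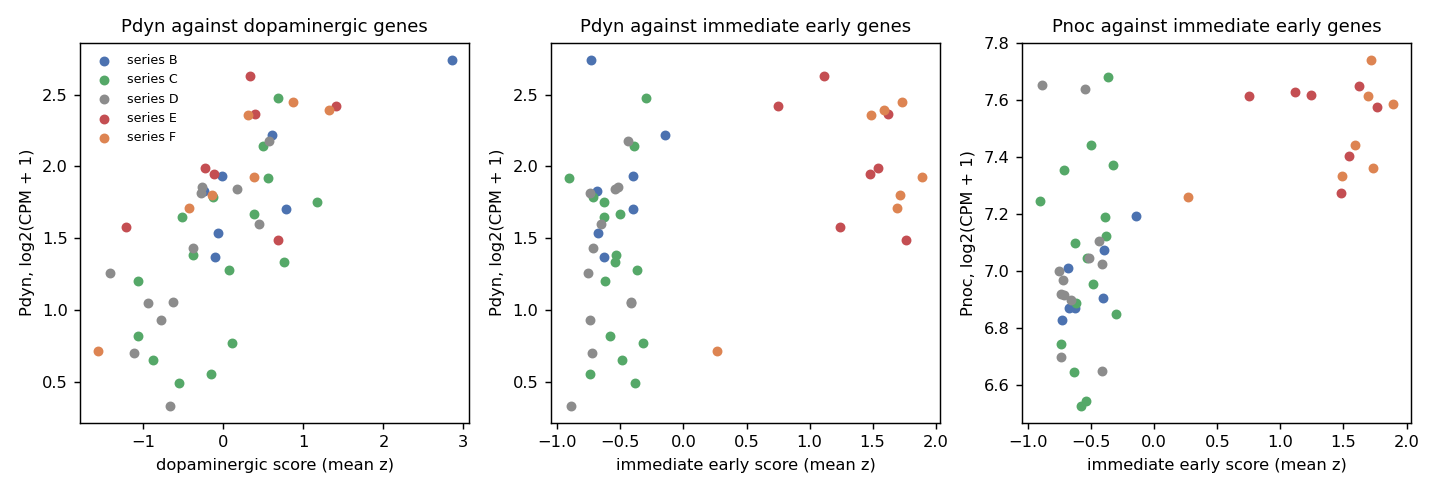
Log2(CPM + 1) of Pdyn against the dopaminergic score (left) and the immediate early score (middle), and of Pnoc against the immediate early score (right); a score is the mean z-score of the list's genes, and each point is 1 of 49 libraries coloured by series. Pdyn climbs with the dopaminergic score in all 5 series, whereas on the immediate early score series E and F lie apart from B, C and D.

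Dense core vesicle and processing genes also rose with Pnoc. Of 9 vesicle genes 4 rose: Vgf, a granin-like peptide precursor (slope 0.31 ± 0.05, limma adjusted p = 2.3e-05), Scg2 (0.25), Ptprn (0.16) and Chga (0.11). Of 10 processing genes 5 rose and 1 fell. Pcsk1n, whose product inhibits Pcsk1, had a slope of 0.19, Pcsk1 0.14, Pam 0.11, Scg5, the chaperone of Pcsk2, 0.09 and Ctsl 0.08, whereas the carboxypeptidase gene Cpd fell (-0.20). With series as a covariate 2 vesicle genes and 1 processing gene rose, against 845 of 18748 genes. Of the RMTg inhibitory markers, 2 of 8 rose, namely Gad1, which makes GABA (0.13 ± 0.03, adjusted p = 0.0031), and Tal1 (0.06); with series as a covariate 0 did. Of 18 receptor signalling genes 4 rose, among them Rgs4 (0.16) and Gnai2 (0.12), and of 8 peptidase genes 2 rose, Ece1 (0.13) and Dpp3 (0.09), against 9.61% of all genes rising. Fitted with series as a covariate, 1 of 18 signalling genes and 0 of 8 peptidase genes rose, and Rgs4 (limma adjusted p = 0.17), Gnai2 (0.082), Ece1 (0.078) and Dpp3 (0.29) did not pass. Of 9 regulators of precursor genes 5 rose, including the shared immediate early genes Fos, Fosb and Junb, and Creb1, whose product binds cAMP response elements, fell (-0.12); with series as a covariate 0 regulators rose. None of 11 dopaminergic markers, 3 opioid receptor genes or 13 other neuropeptide genes had a slope on Pnoc that passed in this limma fit; Slc6a3 had a slope of 0.30, and Oprl1, the receptor of nociceptin, one of 0.01.

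The genes most like Pnoc were Ckb, the brain creatine kinase (r = 0.73 over 49 libraries), Lrrn2 (0.72), the adhesion receptor gene Adgrg1 (0.72), the lysosomal GTPase gene Arl8a (0.72), the Fos family gene Fosl1 (0.71) and Kdelr1 (0.71), which returns proteins to the endoplasmic reticulum. Lowest were the kinesin gene Kif5b (-0.73), Ccdc144b (-0.73) and the kinase gene Wnk1 (-0.72). Ckb, Lrrn2, Adgrg1 and Arl8a were positive in 5 of 5 series. Fosl1, Kdelr1, Kif5b and Wnk1 kept their sign in 4 of 5. For Fosl1, at a median of 0.77 CPM, r was under the pooled value in each series. It was -0.06 in B, 0.61 in C, 0.30 in D, 0.34 in E and 0.41 in F. As for Pdyn, the genes were picked for their r. Genes that rose with Pnoc spanned a median of 14.2 kb of the genome and those that fell 33 kb, against 21.1 kb for all genes tested. For Pdyn the 2 medians were 24.7 and 25.9 kb.

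Pomc had 198 genes with a slope, and they rested on 2 libraries. Without the 2 libraries farthest from the median Pomc level, limma called 0 genes (922 at an unadjusted p under 0.05). Limma called 0 genes of every gene list on Pomc, against 1.06% of all genes. Its most similar genes were Timm13 (r = 0.66, Spearman's rho 0.41), C5h1orf122 (0.66), Gpx4 (0.64), Alkbh7 (0.63), Ppp1r14a (0.62) and H2aj (0.60). Timm13 and Alkbh7 encode mitochondrial proteins and Gpx4 a lipid peroxidase. Lowest were Zfp141 (-0.62), Tmpo (-0.58) and Gmfb (-0.56). Genes that rose with Pomc were short, with a median span of 3.78 kb, and those that fell had one of 38.9 kb, against 21.1 kb over all genes.

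The library with the highest Pomc, at 5.93 CPM and 13.4 M counts, also had the lowest Pdyn (0.26 CPM), while its Penk (208.1 CPM) and Pnoc (200.1 CPM) ranked 42 and 47 of 49 from the lowest. Its 7 hypothalamic markers summed to 13.8 CPM, rank 48 of 49. Over the 49 libraries these markers summed to between 5.24 and 14.9 CPM; 3 of 7 passed the filter, among them Agrp, a marker of other arcuate neurons, at 2.20 to 6.34 CPM, and Oxt was at 0 in 31 libraries. None of the 3 had a slope on Pomc that passed.

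Pituitary RNA was checked because Pomc is abundant in that gland. Of 7 pituitary markers 1 passed the filter, and Prl was at 0 in 42 of 49 libraries. In 1 series F library the 7 summed to 95.6 CPM, with Prl at 79 CPM and Gh1 at 10.9 CPM; the next highest library summed to 6.48 CPM. Pomc in that series F library was 3.15 CPM, rank 44 of 49, and the part of pituitary RNA in it was not tested. The library of highest Pomc was not among these 2.

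Penk varied with no gene at the threshold, and 0 genes of every gene list were called on it. The nearest patterns were those of Rassf7 (r = 0.53), Tnnt3 (0.49), Zfp395 (0.47), the complement gene C1qc (0.45), Zcchc4 (0.45) and Dctd (0.44), and the farthest those of Myo1h (-0.49), Stum (-0.46) and Glyat (-0.46). All had a limma adjusted p of 0.999. The count was 0 in all 11 alternatives that kept to these libraries or fewer. On simulated data of the same 49 libraries, 82% of genes given a slope of 0.25 on Penk were recovered and 100% of those given 0.5. The genes just named had slopes between -0.19 (Stum) and 0.17 (Rassf7). Slopes that small were not simulated, so the simulation does not say whether they would be found. It also gave each slope to 100 genes at once. The adjusted p depends on how many genes have a slope, so this recovery does not carry over to a precursor with few. On the dopaminergic score the slope of Penk was 0.00 ± 0.03 and did not pass.

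Of 6 pairs of precursor genes, 0 passed in the limma fit over all genes. The closest was Pdyn and Pnoc, with Pearson's r = 0.30 (permutation p = 0.040), Spearman's rho = 0.31 (permutation p = 0.029) and a limma adjusted p of 0.093. Without the 2 libraries farthest from the median Pdyn level, r was 0.40 and the adjusted p 0.028. Within series r was 0.15 in B, 0.16 in C, -0.03 in D, 0.26 in E and 0.10 in F, lower than the pooled value in each. For Penk and Pdyn r was 0.01 (permutation p = 0.92), and the single series B library with the lowest Penk (120.3 CPM) had the highest Pdyn (5.68 CPM) and the highest dopaminergic score. The others were 0.16 for Penk and Pnoc (permutation p = 0.27), -0.10 for Penk and Pomc (0.48), -0.17 for Pdyn and Pomc (0.25) and 0.16 for Pnoc and Pomc (0.29). For Penk and Pnoc r was higher than the pooled value in 4 of 5 series, at 0.27 in B, 0.30 in C, 0.55 in D, 0.64 in E and -0.17 in F. It was 0.34 with series as a covariate (limma adjusted p = 0.94) and 0.35 without series E and F (0.9999).

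Levels in the libraries left out are given as a description. In the 32 libraries rich in LOC120093067 and Zfp532, medians were 18.6 CPM for Penk (7.45 to 73.7), 0.44 CPM for Pdyn (0 to 2.71), 17 CPM for Pnoc (7.20 to 143.6) and 0.37 CPM for Pomc (0 to 17.8). In the 11 rich in Nif3l1 they were 0.35 CPM for Penk, 0.25 CPM for Pnoc and 0 for Pdyn and Pomc. Totals there were 2.29 to 13.7 M and 1.72 to 8.43 M counts, and 3 counts, the limit that a count of 0 allows, correspond to 0.22 to 1.31 CPM and 0.36 to 1.75 CPM, so medians of Pdyn and Pomc lie near or under that limit.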

How the data were processed

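The deposited table gives log2 values for 38354 genes in 92 libraries; kallisto 0.48 is named per the submitters' processing notes, and the build is not given in the sources used here. From the values, each is log2 of an estimated count plus 1: once back-transformed, 49.98% of the entries between 0 and 20 came within 0.01 of a whole number. Of 93 labelled samples, 1 is marked as removed for want of a genotype, per the labels, and was not used here.

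Values were back-transformed, scaled to CPM by the library total and tested as log2(CPM + 1) with limma 3.58.1 (trend) in R 4.3.3, since log2 values do not suit a count test. The filter kept the 18749 genes that reached a log2 value of 1 in 20% of libraries or more, and p-values were Benjamini-Hochberg adjusted over all of them, at a threshold of 0.05. Pairs of precursor genes were tested with 100000 two-sided permutations. List scores needed at least 3 genes, and series at least 6 libraries. Exact 95% intervals cover counting error only. Nothing in the labels says that samples come from separate animals, so p-values measure the spread between samples.

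On simulated counts in the same libraries, slopes of 0.25 log2 units per SD were recovered for 76% to 85% of genes and slopes of 0.5 for 100%. Noise was drawn separately for each gene there, unlike in real libraries, and smaller slopes were not simulated. Each size was given to 100 genes at once, so recovery where few genes have a slope is not known. The members and gene lists were chosen with earlier results of these data known. The text names the 4 genes, members of the lists and, for each precursor gene, the 6 genes of highest and 3 of lowest r, passing over uncharacterised symbols; libraries named by rank were chosen after their values were seen. Of the 38354 symbols 38278 matched RefSeq's GRCr8 table, which has no promoter window used here for Penk or Pnoc. Alternatives were other scaling, filter, pseudocount (0.5) and library choices and covariates; 3 of them (first principal component, dopaminergic score, without series E and F) were added after seeing the data.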

Additional observations from a re-analysis of the deposited data

Results flagged for a closer look

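Penk in 1 series E library, at 226.8 CPM, stood apart from the other 6 of that series, of which the next was at 182.2 CPM; the gap was 0.578 of the series' range. It was the 1 flag among 12 groups of 7 libraries (4 genes in series B, E and F), and chance flags about 1 in 20. The same library ranked 48 of 49 on the dopaminergic score and 45 on Pdyn (4.36 CPM).

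Pomc was highest not in the libraries used but in 2 series B libraries left out by the rule on LOC120093067 and Zfp532, at 17.8 CPM (245.2 estimated counts) and 11.9 CPM (125.4), against at most 5.93 CPM in the 49 libraries used. Those 2 libraries had hypothalamic marker sums of 17.4 and 15.2 CPM, against at most 14.9 CPM in the libraries used. Their pituitary marker sums were 1.17 and 2.18 CPM, against a median of 2.83 CPM, and their Penk levels were 51.8 and 73.7 CPM, against at least 120.3 CPM. In series C, the library left out by the same rule with the highest Pomc (4.16 CPM) had a hypothalamic sum of 13.5 CPM. The rest of the libraries left out by that rule are not compared here. The part of hypothalamic RNA in these Pomc levels was not tested.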

How the results depend on the processing

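No paired analysis was possible because the labels give 1 group and no shared replicate numbers. Over all 92 libraries, medians were 135.3 CPM for Penk and 101 CPM for Pnoc, slope counts were 18002 for Penk, 17120 for Pdyn, 18021 for Pnoc and 17410 for Pomc, 14000 genes differed between series, and 80 of 80 slopes on scores passed. Pair correlations were then 0.74 (Penk and Pdyn), 0.99 (Penk and Pnoc), 0.78 (Penk and Pomc), 0.74 (Pdyn and Pnoc), 0.58 (Pdyn and Pomc) and 0.81 (Pnoc and Pomc). The slope of Pdyn on the glycinergic score was 0.43, against -0.28 (limma adjusted p = 0.012) over the 49 libraries. The cause was not tested.

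With Xist and Ddx3y as covariates the counts were 105 genes between series, 1393 on Pdyn, 1493 on Pnoc and 308 on Pomc, 9 of 84 score slopes passed against 16, and r for Penk and Pdyn was -0.072. With series as covariate they were 1337 on Pdyn, 1376 on Pnoc and 298 on Pomc, with 10 score slopes, and Pnoc on the regulator score was -0.048. With the first principal component they were 131 between series, 9 on Pdyn and 1731 on Pnoc, with 4 score slopes; r was -0.035 for Penk and Pdyn and -0.10 for Pdyn and Pnoc, and Pdyn on the astrocyte score was -0.061. With the dopaminergic score they were 417 on Pdyn and 344 on Pomc, with 8 of 80 score slopes, and Pdyn on the other neuropeptide score was -0.0089. Without series E and F they were 0 between series, 455 on Pdyn, 335 on Pnoc and 116 on Pomc, with 4 of 80 score slopes, and Pnoc on the regulator score was -0.034. Fewer libraries were then fitted, and otherwise the cause was not tested. Without a covariate, over all 49 libraries, the slope was 0.18 for Pnoc on the regulator score (limma adjusted p = 0.0013). For Pdyn on the astrocyte score it was 0.22 (limma adjusted p = 0.023).

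The Pomc count was 672 under median-of-ratios scaling (which also turned r for Penk and Pomc to 0.0021), 118 without the filter, 121 with pseudocount 0.5, 340 with library total as covariate and 0 without the 2 farthest libraries, which put r for Pdyn and Pnoc at 0.40. Depth limits Pdyn and Pomc most, at 3.52 and 9.44 estimated counts in their lowest libraries. Under the alternatives, 105 values of the comparisons kept their direction and side of the threshold, and 45 did not and are given here. Of the values of single genes (the series test of each precursor gene and its slopes on the list scores), 175 kept both, 48 lost the call, 3 gained it and 5 reversed. Among the lost were Pdyn on the processing score with the first principal component (0.33), and Pnoc on that score with the component (0.12) and without series E and F (0.098).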
